A study of Homo sapiens with 12 samples.

Results

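The genes described here are 10 genes of iron handling among the 58174 genes listed for each cell line. They are HAMP, which encodes the hormone hepcidin, the transferrin gene TF, the transferrin receptor genes TFRC and TFR2, the iron exporter gene SLC40A1, the ferritin genes FTH1 and FTL, and ID1, SMAD6 and SMAD7, which are targets of BMP signalling. They were chosen by name because HAMP was much higher in Hep-G2 cells after depletion of IGF2BP1. The Hep-G2 values of all 10 genes are therefore given as a description with no test, whereas the BE(2)-C values, which the reason for the choice does not name, were tested. Earlier results of these data were known when the genes were chosen.

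The study depleted IGF2BP1, an RNA-binding protein found in fetal tissue and in many tumours, in Hep-G2 cells, a hepatoblastoma line, and in BE(2)-C cells, a neuroblastoma line. Cells were transfected with a control siRNA (siC) or a pool of siRNAs against IGF2BP1 (siI1) and harvested 72 h later. Strand-specific poly-A libraries came from 3 biological replicates in each of the 4 groups, and the siRNA concentration differed between the lines. Each library held 12852988 to 15721210 reads on genes. Since RNA was taken from whole cultures, fewer cells expressing a gene and less RNA per cell cannot be told apart.

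Hepcidin is a peptide hormone secreted by the liver. It binds the exporter ferroportin, the product of SLC40A1, and causes its degradation, so that less iron leaves macrophages, hepatocytes and the gut. Hepatocytes set HAMP transcription through BMP and SMAD signalling, with TFR2 and the co-receptor HJV among the sensors, and through IL6 and STAT3. Within the cell, iron regulatory proteins bind stem-loops called iron responsive elements when iron is low, which blocks translation of ferritin and stabilises the TFRC message.

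The cell lines were checked against marker genes. In Hep-G2, 7 of 7 hepatocyte markers had a mean of at least 1 FPKM (fragments per kilobase of gene length, scaled for library size, a level per length), led by ALB at 4619 FPKM, and 0 of 8 sympathetic neuroblast markers did. In BE(2)-C, 8 of 8 neuroblast markers reached that level, led by MYCN at 1778 FPKM, and 0 of 7 hepatocyte markers did, with AFP and AHSG at no read. Of the other cell types looked at, 0 of 4 endothelial and 0 of 3 erythroid markers reached 1 FPKM in either line, and of 4 macrophage markers CD14 alone did, at 1.46 FPKM in Hep-G2 and 1.33 FPKM in BE(2)-C as means over both groups. CD14 stood at 0.717, 0.895 and 0.683 FPKM in siC and 2.31, 2.11 and 2.02 FPKM in siI1 of Hep-G2, and at 2.33, 1.32 and 2.01 FPKM in siC and 0.549, 1.13 and 0.649 FPKM in siI1 of BE(2)-C.

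IGF2BP1 itself (ENSG00000159217, chr17:48997385-49056145, plus strand, in hg38 as are all gene positions here) was measured first. In Hep-G2 it stood at 48.5, 46.6 and 50.8 FPKM in the siC libraries and at 12.6, 10.7 and 10.7 FPKM in the siI1 libraries. BE(2)-C cells held 21.3, 20.6 and 21.6 FPKM in siC and 4.85, 4.75 and 4.87 FPKM in siI1. All 6 siI1 libraries lay below all siC libraries of their line, as the labels have it. The siI1 mean was 23.3% of the siC mean in Hep-G2 (log2 difference -2.10 ± 0.08 SE, limma adjusted p = 7.8e-06) and 22.8% in BE(2)-C (log2 difference -2.11 ± 0.05 SE, limma adjusted p = 1.5e-05).

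One Hep-G2 library stood apart from its group. In a comparison of read counts between pairs of siI1 libraries, chi-square per degree of freedom was 13.8 and 14.3 for the pairs with replicate 1, and 1.98 for replicates 2 and 3. Log2 differences of the 10 genes in Hep-G2 are therefore also given without siI1 replicate 1.

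HAMP (ENSG00000105697, chr19:35280716-35285143, plus strand) had the lowest level of the 10 genes in control Hep-G2 cells. The siC libraries held 1.63, 1.97 and 1.87 FPKM, from 76, 81 and 83 reads. The siI1 libraries held 40.9, 45.9 and 48.2 FPKM, from 1666, 2010 and 1939 reads. All siI1 libraries lay above all siC libraries, the lowest of them 20.7 times the highest siC library. The mean was 1.82 ± 0.179 FPKM in siC and 45.0 ± 3.71 FPKM in siI1 (SD, n = 3), a 24.7-fold difference. On the log2(FPKM + 0.1) scale used for all log2 differences here it was 4.55 ± 0.10 (SE), number 4 from the top of 19436 tested genes, and 4.62 without siI1 replicate 1. With a pseudocount of 1 it was 4.02.

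The stretch before a RefSeq start of HAMP, which lies inside the gene interval given above, is shown because HAMP differed most among the 10 genes and because BMP and IL6 signals act on it. It is chr19:35282278-35282527 on the plus strand of GRCh38.p14, 250 bases from RefSeq, with the BMP response element GGCGCC and the STAT3 site TTCTTGGAA in capitals.

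HAMP upstream region: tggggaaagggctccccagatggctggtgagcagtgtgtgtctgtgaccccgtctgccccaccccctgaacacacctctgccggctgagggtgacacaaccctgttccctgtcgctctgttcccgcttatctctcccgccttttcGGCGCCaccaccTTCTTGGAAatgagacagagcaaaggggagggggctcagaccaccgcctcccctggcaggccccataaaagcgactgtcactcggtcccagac

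Both motifs and another pair were searched on both strands in 35116 RefSeq promoter windows of 250 bases before to 50 after a start. GGCGCC was found in 19.22% of windows, TTCTTGGAA in 0.36%, the SMAD element GTCTAGAC in 0.2% and the E-box CACGTG in 7.26%. GGCGCC, GTCTAGAC and CACGTG read the same on both strands, and the motifs do not overlap in HAMP. Promoter windows matched 8 of the 10 genes, 11 windows in all, and not TFR2 and FTH1. GGCGCC occurred in HAMP, TF and TFRC, TTCTTGGAA in HAMP alone, GTCTAGAC in SMAD6 alone and CACGTG in none of these windows. A match describes the letters in a window and no binding.

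**Figure D1:**
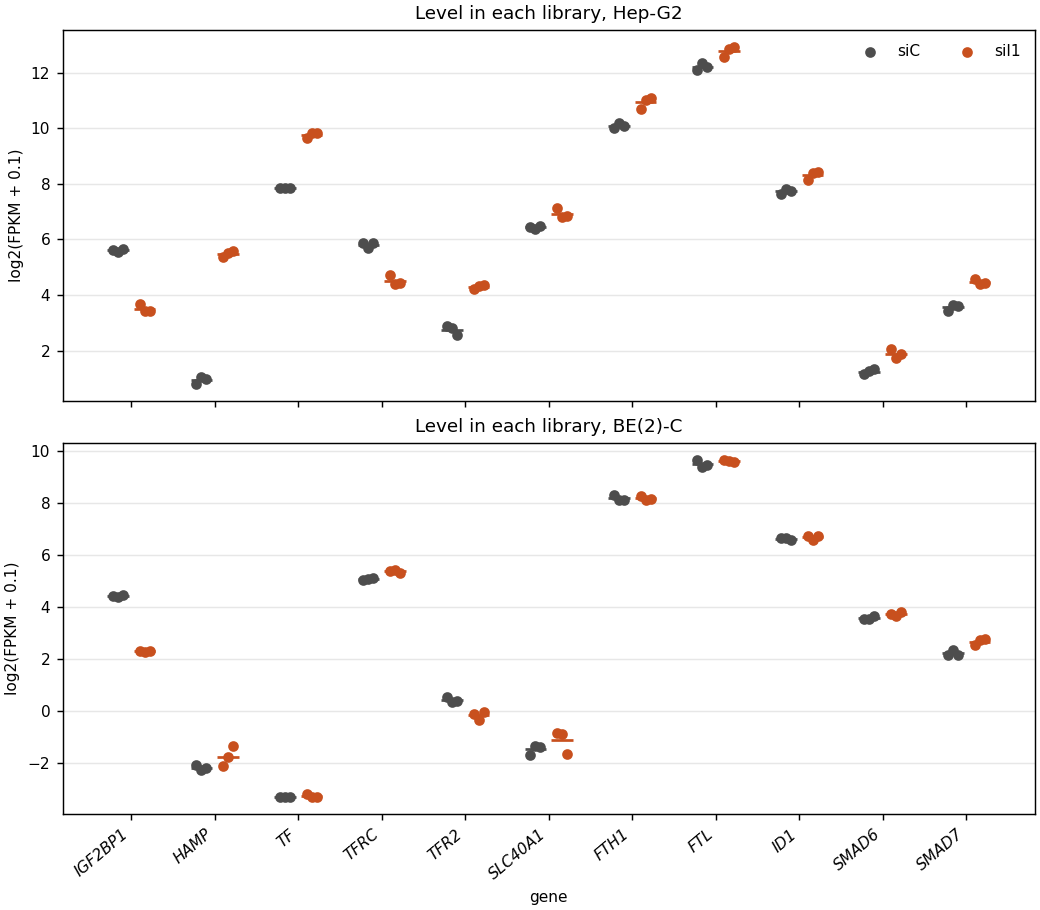
Level of IGF2BP1 and the 10 genes in each library of both cell lines, as log2(FPKM + 0.1), for siC (grey) and siI1 (orange). Each point is 1 library and each short line the mean of 3. In Hep-G2, the mean of HAMP is 1.82 FPKM in siC and 45.0 FPKM in siI1, and that of TFRC is 56.4 and 22.9 FPKM.

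TF (ENSG00000091513, chr3:133746040-133796641, plus strand) encodes the protein that carries iron in plasma. In Hep-G2 it stood at 230.0, 231 and 229 FPKM in siC and at 811, 915 and 904 FPKM in siI1. The siC libraries lay close together and below all siI1 libraries, and the mean was 3.81-fold higher in siI1. The log2 difference was 1.93 ± 0.08 (SE), and 1.98 without siI1 replicate 1. TF overlaps SRPRB on the same strand, so its level is uncertain where reads fall in both.

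The receptor genes differed in opposite directions. TFRC (ENSG00000072274, chr3:196012511-196082153, minus strand), the receptor that takes up transferrin-bound iron in most cells, stood at 58.4, 52.1 and 58.8 FPKM in siC and at 26.0, 21.0 and 21.6 FPKM in siI1. It was the single member with all siI1 libraries below all siC libraries, at 40.5% of the siC mean (log2 difference -1.30 ± 0.10 SE, and -1.40 without siI1 replicate 1). TFR2 (ENSG00000106327, chr7:100620416-100642779, minus strand), a receptor found mainly in hepatocytes, stood at 7.26, 6.91 and 5.86 FPKM in siC and at 18.5, 19.7 and 20.4 FPKM in siI1. Its mean was 2.93-fold higher in siI1 (log2 difference 1.54 ± 0.09 SE, and 1.58 without siI1 replicate 1). The ratio of TFRC to TFR2, which does not depend on how a library was scaled, was 8.04, 7.54 and 10.0 in siC and 1.41, 1.06 and 1.06 in siI1.

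SLC40A1 (ENSG00000138449, chr2:189560590-189583758, minus strand), the exporter on which hepcidin acts, stood at 88.4, 83.0 and 90.2 FPKM in siC and at 139, 111 and 116 FPKM in siI1. The groups did not overlap, and siI1 replicate 1 was the highest library. The mean was 1.40-fold higher in siI1 (log2 difference 0.48 ± 0.09 SE), with a log2 difference of 0.38 without siI1 replicate 1.

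The ferritin genes were the most abundant of the 10. FTL (ENSG00000087086, chr19:48965309-48966879, plus strand), the light chain, had the highest FPKM of all genes in all 6 Hep-G2 libraries. It stood at 4446, 5170.2 and 4765 FPKM in siC and at 6098, 7465 and 7775 FPKM in siI1. FTH1 (ENSG00000167996, chr11:61959718-61967634, minus strand), the heavy chain with the ferroxidase site, stood at 1026, 1164 and 1099 FPKM in siC and at 1679, 2087 and 2186 FPKM in siI1. Neither pair of groups overlapped, and replicate 1 was the lowest siI1 library for both. The means were 1.48-fold and 1.81-fold higher in siI1, with log2 differences of 0.56 and 0.85, and of 0.67 and 0.96 without siI1 replicate 1. The ratio of FTL to FTH1 was 4.33, 4.44 and 4.33 in siC and 3.63, 3.58 and 3.56 in siI1, lower in all siI1 libraries. Together they held 2.17% to 2.39% of all FPKM in siC and 2.84% to 3.31% in siI1.

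Both ferritin genes have near-identical copies among which reads could have been split. Of 25 FTH1 and 14 FTL pseudogenes listed, the summed FPKM was 1.42% to 2.40% of that of FTH1 and 0.0997% to 0.142% of that of FTL over the Hep-G2 libraries. FTH1 also overlaps BEST1 on the opposite strand. These sums hold only the reads assigned to the copies. How many reads that match several copies were left out is not measured here, so the sums set no bound on the uncertainty of the ferritin levels.

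Iron responsive elements were searched as the loop CAGTG and 1 more base, after a C and 5 bases that pair with the 5 bases behind the loop, G with T counted as a pair. The search was added after the values had been seen and is a description. Among 20431 genes with a coding transcript, the shape occurred in the 5' UTR of 41 (0.2%), among them SLC40A1, FTH1 and FTL. It occurred in the coding sequence of 134 (0.66%), and in the 3' UTR of 182 (0.89%), among them TF and, with 4 sites, TFRC. The sites below are shown because iron regulatory proteins bind FTL, SLC40A1 and TFRC messages at such loops, which are in capitals.

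FTL 5' UTR, chr19:48965335-48965363, plus strand: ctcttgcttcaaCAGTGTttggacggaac

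SLC40A1 5' UTR, chr2:189580661-189580689, minus strand: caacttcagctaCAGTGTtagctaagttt

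TFRC 3' UTR, chr3:196050463-196050491, minus strand: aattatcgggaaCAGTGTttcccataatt

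TFRC 3' UTR, chr3:196050510-196050538, minus strand: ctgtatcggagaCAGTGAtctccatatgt

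TFRC 3' UTR, chr3:196050575-196050603, minus strand: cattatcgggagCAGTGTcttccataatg

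TFRC 3' UTR, chr3:196050979-196051007, minus strand: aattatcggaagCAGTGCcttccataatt

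The BMP targets were also higher in siI1. ID1 (ENSG00000125968, chr20:31605283-31606515, plus strand), an inhibitor of helix-loop-helix factors, stood at 199, 225 and 215 FPKM in siC and at 284, 335 and 344 FPKM in siI1. SMAD6 (ENSG00000137834, chr15:66702236-66782849, plus strand), an inhibitory SMAD, stood at 2.11, 2.30 and 2.40 FPKM in siC and at 4.05, 3.26 and 3.60 FPKM in siI1. SMAD7 (ENSG00000101665, chr18:48919853-48950965, minus strand), the other inhibitory SMAD, stood at 10.8, 12.3 and 12.1 FPKM in siC and at 23.7, 21.2 and 21.4 FPKM in siI1. All siI1 libraries lay above all siC libraries for the 3 genes, and the means were 1.51-fold, 1.60-fold and 1.88-fold higher. The log2 differences were 0.59, 0.65 and 0.91, and 0.67, 0.57 and 0.86 without siI1 replicate 1.

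In Hep-G2 the siI1 and siC libraries did not overlap for 10 of 10 members, 9 of them higher and 1 lower in siI1. Of 19436 tested genes, 28.0% lay higher and 27.8% lower without overlap. By limma at an adjusted p below 0.05, 44.8% were called, 21.9% higher and 23.0% lower. The same contrast chose the genes, so nothing is read from these counts. In order of level per length, FTL was followed in siC by FTH1, TF, ID1, SLC40A1, TFRC, SMAD7, TFR2, SMAD6 and HAMP, and no neighbours overlapped. In siI1, HAMP stood between SLC40A1 and TFRC, and only TFRC and SMAD7 overlapped among neighbours.

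The scaling of the libraries bears on these levels. Where all Hep-G2 libraries were scaled to equal sums of FPKM, the median over all tested genes shifted by -0.154 on the log2 scale. The share of Hep-G2 calls that were higher was 35.4% under it, 48.8% as deposited and 57.6% after median centring, so the balance moved either way with the scaling. All 10 genes kept their direction in Hep-G2 with equal sums, with 4.39 for HAMP, 0.40 for FTL and 0.31 for SLC40A1 as log2 differences.

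**Figure D2:**
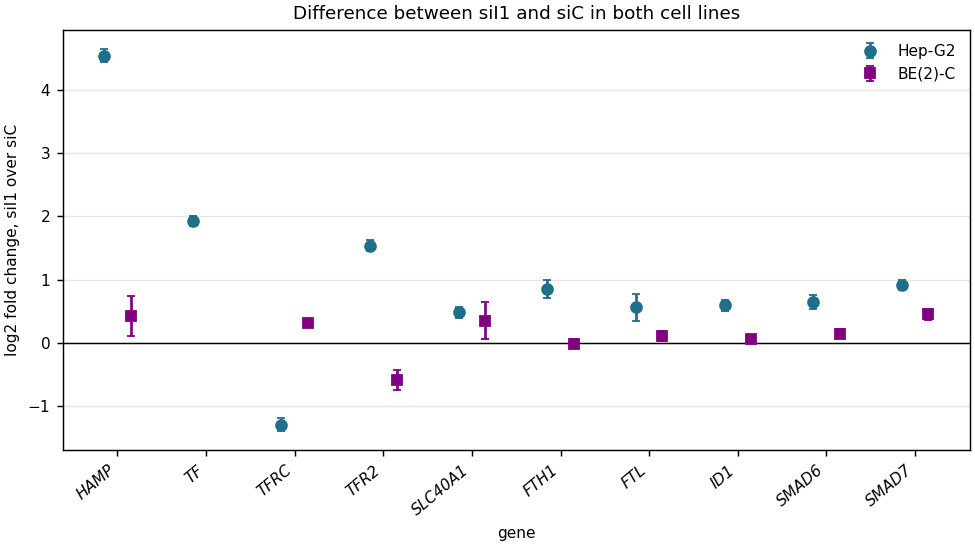
Log2 difference between siI1 and siC of each of the 10 genes in Hep-G2 (circles) and BE(2)-C (squares), with the SE from limma as bars (n = 3 per group). HAMP stands at 4.55 in Hep-G2 and 0.42 in BE(2)-C, TFRC and TFR2 lie on opposite sides of 0 in each line, and TF has no point in BE(2)-C, where it was not tested.

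Hepatocyte markers differed between the same Hep-G2 libraries. The summed level of the 7 markers was 8325, 8329.8 and 8256 FPKM in siC and 13461, 15257 and 15470 FPKM in siI1. ALB stood at 3211, 3085 and 3170.4 FPKM in siC and 5916, 6209 and 6125 FPKM in siI1. AFP, a marker of fetal liver, stood at 1579, 1565 and 1544 FPKM in siC and 992, 1062 and 1065 FPKM in siI1. TTR stood at 102, 116 and 103 FPKM in siC and 51.5, 69.0 and 69.9 FPKM in siI1, and APOB at 611, 496 and 580.3 FPKM in siC and 512, 366 and 383 FPKM in siI1. Of the 7 markers, ALB, APOA1, SERPINA1 and AHSG lay higher and AFP and TTR lower in all siI1 libraries, and the groups of APOB overlapped. The part of such genes in the values of HAMP, TF and the other members was not tested.

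In BE(2)-C, HAMP and TF were at or near the detection limit. Levels are not compared across the lines beyond setting them side by side, because the tables were normalized separately. HAMP stood at 0.139, 0.104 and 0.119 FPKM in siC and at 0.129, 0.188 and 0.287 FPKM in siI1, from 4 to 12 reads a library. The groups overlapped, and a difference was not detectable at this depth (log2 difference 0.42 ± 0.32 SE, limma adjusted p = 0.38, higher in 2 of 3 siI1 libraries than in all siC libraries). The log2 difference was 0.22 without siI1 replicate 3. TF had 1 read in siI1 replicate 1 and none in the other 5 libraries. It was not tested, and a count of 0 allows up to 3 reads, at most 0.0273 FPKM in a library.

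Of the 9 members that passed the filter on low values in BE(2)-C, 3 were called by limma, TFRC and SMAD7 higher and TFR2 lower. Of 18656 tested genes, 28.2% were called, 13.3% higher and 14.8% lower, and 22.6% and 22.4% lay higher and lower without overlap. TFRC stood at 32.2, 33.1 and 34.6 FPKM in siC and 41.5, 42.6 and 39.5 FPKM in siI1. It was higher in 3 of 3 siI1 libraries, 1.24-fold in the mean (log2 difference 0.31 ± 0.05 SE, limma adjusted p = 0.0044). SMAD7 stood at 4.38, 4.90 and 4.32 FPKM in siC and 5.66, 6.44 and 6.63 FPKM in siI1. It was higher in 3 of 3 siI1 libraries, 1.38-fold in the mean (log2 difference 0.45 ± 0.09 SE, limma adjusted p = 0.0097). TFR2 stood at 1.36, 1.16 and 1.21 FPKM in siC and 0.830, 0.684 and 0.867 FPKM in siI1, from 49 to 99 reads a library. It was lower in 3 of 3 siI1 libraries, at 63.8% of the siC mean (log2 difference -0.59 ± 0.16 SE, limma adjusted p = 0.03). The ratio of TFRC to TFR2 was 23.6, 28.6 and 28.5 in siC and 49.97, 62.2 and 45.5 in siI1.

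The TFR2 call rested on all 6 libraries. Its limma adjusted p was 0.084, 0.054 and 0.065 without siC replicates 1, 2 and 3, and 0.062, 0.086 and 0.055 without siI1 replicates 1, 2 and 3, in a range of 0.02 to 0.096 over the alternatives. With no filter on low values 0 of the 3 were called by limma (3 of the 10 members had an unadjusted p below 0.05), and the highest limma adjusted p in the ranges of 0.0023 to 0.052 for TFRC and 0.0051 to 0.1 for SMAD7 came from that setting. Of all genes, 5252 were called, 3487 without siI1 replicate 2 and 3431 without siI1 replicate 3.

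The remaining 6 tested members were not called in BE(2)-C. FTL stood at 798, 671 and 704 FPKM in siC and 800.4, 783 and 763 FPKM in siI1 (log2 difference 0.11 ± 0.08 SE, limma adjusted p = 0.31). FTH1 stood at 319, 279 and 278 FPKM in siC and 303, 278 and 283 FPKM in siI1 (log2 difference -0.02 ± 0.07 SE, limma adjusted p = 0.88), with a log2 difference of 0.02 after median centring, 0.00 with equal sums of FPKM, 0.05 without siC replicate 1 and 0.01 without siI1 replicate 2. Both pairs of groups overlapped. The ratio of FTL to FTH1 was 2.51, 2.40 and 2.53 in siC and 2.64, 2.81 and 2.69 in siI1. This ratio was higher in all siI1 libraries, whereas in Hep-G2 it was lower in all of them. SLC40A1 stood at 0.209, 0.288 and 0.281 FPKM in siC and 0.448, 0.441 and 0.216 FPKM in siI1, from 13 to 30 reads a library. ID1 stood at 99.6, 98.9 and 93.8 FPKM in siC and 104, 95.1 and 106 FPKM in siI1, and SMAD6 at 11.4, 11.6 and 12.6 FPKM in siC and 12.9, 12.3 and 14.0 FPKM in siI1. The groups of these 3 genes overlapped, with log2 differences of 0.35, 0.06 and 0.14 (limma adjusted p = 0.45, 0.44 and 0.18). That of SLC40A1 was 0.21, 0.22 and 0.61 without siI1 replicates 1, 2 and 3. With 1 library left out, the log2 differences were 0.06 to 0.19 for FTL, -0.05 to 0.05 for FTH1, 0.03 to 0.11 for ID1 and 0.09 to 0.18 for SMAD6. In order of level per length, FTL was followed by FTH1, ID1, TFRC, SMAD6, SMAD7, TFR2, SLC40A1, HAMP and TF, and only SLC40A1 and HAMP in siI1 overlapped among neighbours.

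Other genes of the pathways were taken from 7 lists of 118 genes, chosen with earlier results of these data known. Genes named from them are those of smallest p among the called, so their p-values are not independent of that choice. In Hep-G2, 45 of 99 tested list genes were called higher and 25 lower, with a median log2 difference of 0.16 (0.01 over all tested genes). With equal sums of FPKM the balance turned, at 35 higher and 38 lower. The same lists in BE(2)-C had 15 of 80 tested genes called higher and 16 lower, with a median of 0.00 (0.02 over all tested genes). Of all tested genes, 21.9% were called higher and 23.0% lower in Hep-G2, and 13.3% higher and 14.8% lower in BE(2)-C, and the counts of each list below stand beside these shares. Values given for list genes are mean FPKM in siC and siI1 (n = 3 each) with limma adjusted p. The groups did not overlap for any of the list genes given by a small p, 27 in Hep-G2 and 21 for the BE(2)-C line.

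In the BMP and SMAD list, 10 of 25 tested genes were higher and 9 lower in Hep-G2 (median 0.01). TMPRSS6, the protease that cuts HJV, rose from 2.31 to 19.8 FPKM (adjusted p = 5.3e-06). HJV itself was near the detection limit in Hep-G2, at 0 FPKM in siC and 0.0608 FPKM in siI1. It had at most 3 reads in a library and was not tested. The BMP targets ID3 and ID2 rose from 29.3 to 68.6 FPKM and from 75.7 to 135 FPKM (adjusted p = 9.6e-06 and 5.3e-05). FST, which binds activins and BMPs, fell from 40.2 to 12.7 FPKM (adjusted p = 1.5e-05). Of 22 tested in BE(2)-C, 6 were higher and 2 lower (median 0.02). BMP7 fell from 6.88 to 3.05 FPKM (adjusted p = 0.00046). FKBP1A, which holds type I receptors inactive, rose from 67.0 to 96.7 FPKM (adjusted p = 0.0013). The type I receptor ACVR1 rose from 3.49 to 5.63 FPKM (adjusted p = 0.0057, at most 0.093 over the alternatives, with no filter). The count of higher genes was 3 without siI1 replicate 1 and 3 without siI1 replicate 3, and that of lower genes was 1 without siC replicate 2, siI1 replicate 1 or siI1 replicate 2.

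In the list of IL6, STAT3 and the acute phase, 8 of 15 tested genes were higher and 4 lower in Hep-G2 (median 0.24). The acute phase gene ORM1 rose from 119 to 474 FPKM and SOCS1, a feedback inhibitor of JAK kinases, from 4.79 to 17.6 FPKM (adjusted p = 3.1e-05 and 7.1e-05). SERPINA3, a protease inhibitor, fell from 3.56 to 0.509 FPKM and the fibrinogen gene FGG from 201 to 125 FPKM (adjusted p = 7.7e-05 and 0.00027). Of 6 tested in BE(2)-C, 1 was higher and 0 lower by limma (median 0.16), with 0 lower at an unadjusted p below 0.05. The higher gene was SOCS1, from 0.399 to 1.09 FPKM (adjusted p = 0.0033), on 6 to 21 reads a library.

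In iron and heme transport, 5 of 15 tested genes were higher and 4 lower in Hep-G2 (median -0.11). HPX, which binds heme in plasma, rose from 6.51 to 46.2 FPKM and FLVCR2 from 4.92 to 9.45 FPKM (adjusted p = 2.9e-06 and 7.4e-05). SLC39A14, an importer of zinc and iron, fell from 78.1 to 18.9 FPKM and the ferroxidase gene CP from 2.78 to 0.539 FPKM (adjusted p = 1.7e-05 and 6.1e-05). Of 10 tested in BE(2)-C, 2 were higher and 4 lower (median -0.23). SLC39A14 fell from 42.2 to 20.2 FPKM (adjusted p = 0.00014). STEAP3, an endosomal ferrireductase, fell from 3.68 to 2.21 FPKM, and SLC25A37, which brings iron into mitochondria, rose from 9.61 to 12 FPKM (adjusted p = 0.0058 and 0.0062, at most 0.079 and 0.051 over the alternatives, with no filter). SLC39A8 fell from 0.774 to 0.402 FPKM (adjusted p = 0.017), with 0.051 as the highest over the alternatives, reached with the replicate block and without siC replicate 1, siI1 replicate 1 or siI1 replicate 3. The count of higher genes was 1 without siC replicate 3, siI1 replicate 1 or siI1 replicate 2, and that of lower genes 2 without siC replicate 1 or siI1 replicate 3.

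In iron sensing and storage, 4 of 11 tested genes were higher and 3 lower in Hep-G2 (median 0.08), with 1 lower without siC replicate 1, siI1 replicate 2 or siI1 replicate 3. The transcription factor gene NFE2L2 fell from 46.3 to 34.5 FPKM (adjusted p = 0.00049). HMOX1, which degrades heme, rose from 33.0 to 46.8 FPKM, and FBXL5, which targets an iron regulatory protein for degradation, from 9.01 to 12.1 FPKM (adjusted p = 0.0031 and 0.0049). ACO1, which encodes an iron regulatory protein, rose from 8.18 to 10.3 FPKM (adjusted p = 0.0036, at most 0.12 over the alternatives, with equal sums of FPKM). Of 11 tested in BE(2)-C, 1 was higher and 3 lower (median 0.01). EPAS1, a hypoxia-inducible factor, rose from 9.00 to 14.1 FPKM and PCBP1, which delivers iron to ferritin, fell from 206 to 158 FPKM (adjusted p = 0.00076 and 0.0028). ACO1 fell from 3.31 to 1.80 FPKM and HMOX1 from 1.23 to 0.549 FPKM (adjusted p = 0.0063 and 0.021, at most 0.095 and 0.19 over the alternatives, with no filter). The HMOX1 call also ended without siC replicate 1, siC replicate 3, siI1 replicate 2 and siI1 replicate 3 (adjusted p = 0.065, 0.062, 0.065 and 0.064).

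In heme synthesis, 3 of 8 tested genes were higher and 0 lower by limma in Hep-G2 (median 0.18), with 1 lower at an unadjusted p below 0.05. Without siI1 replicate 1, 5 were higher and 1 lower, and 1 was lower without siC replicate 1. ALAD rose from 13.4 to 28.7 FPKM and FECH, which inserts iron into heme, from 6.20 to 8.97 FPKM (adjusted p = 1.6e-05 and 0.0061, the latter at most 0.064 over the alternatives, with equal sums of FPKM). ALAS1, the first enzyme of the pathway in liver, rose from 29.2 to 32.6 FPKM (adjusted p = 0.024, at most 0.92 over the alternatives, with equal sums of FPKM, where its log2 difference was -0.01). The ALAS1 call also ended with no mean-variance trend, without siC replicates 1, 2 and 3 and without siI1 replicates 2 and 3 (adjusted p = 0.1, 0.077, 0.086, 0.074, 0.066 and 0.062). Of 8 tested in BE(2)-C, 3 were higher and 3 lower (median -0.22). The enzyme genes UROS, CPOX and FECH rose from 9.26 to 13.2, from 14.1 to 17.6 and from 4.11 to 5.55 FPKM (adjusted p = 0.0022, 0.0038 and 0.0045). UROD fell from 21.1 to 17.0 FPKM (adjusted p = 0.0088, at most 0.093 over the alternatives, with no filter).

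In iron-sulfur cluster assembly, 11 of 20 tested genes were higher and 4 lower in Hep-G2 (median 0.32). The scaffold gene ISCU rose from 21.5 to 39.6 FPKM and ISCA2 from 7.55 to 12.2 FPKM (adjusted p = 7.8e-05 and 0.00015). FDXR, which passes electrons to ferredoxin, rose from 42.4 to 82.9 FPKM and the glutaredoxin gene GLRX5 from 33.1 to 51.5 FPKM (adjusted p = 0.00027 and 0.00047). Of 20 tested in BE(2)-C, 2 were higher and 2 lower (median 0.07). FDXR fell from 3.12 to 1.69 FPKM (adjusted p = 0.0031). The chaperone gene HSPA9 rose from 182 to 209.9 FPKM (adjusted p = 0.014, at most 0.063 over the alternatives), and ended as a call with no filter, with no trend and without siI1 replicate 2 (adjusted p = 0.062). BOLA3 fell from 9.32 to 7.19 FPKM (adjusted p = 0.022, at most 0.2, with no filter), and ended as a call with no trend and without siC replicates 2 and 3 and siI1 replicates 1 and 3 (adjusted p = 0.052, 0.06, 0.067 and 0.065). The count of higher genes was 4, 1 and 0 without siC replicate 3, siI1 replicate 1 and siI1 replicate 2 (by limma, and 3 at an unadjusted p below 0.05 in the last), and that of lower genes 1 without siC replicate 2 or siI1 replicate 3.

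Of the hepcidin promoter factors, 4 of 5 were higher and 1 lower in Hep-G2 (median 0.57). CEBPA, a liver transcription factor that acts on the HAMP promoter, rose from 45.6 to 165 FPKM (adjusted p = 5.1e-06). USF2 rose from 18.0 to 27.2 FPKM, CREB3L3 rose by 0.57 on the log2 scale and USF1 fell from 11.8 to 8.07 FPKM (adjusted p = 0.00098, 0.0037 and 0.0034). Of 3 tested in BE(2)-C, 0 were higher and 2 lower by limma (median -0.60), with 0 higher at an unadjusted p below 0.05. CEBPA fell from 1.32 to 0.383 FPKM and USF1 from 29.9 to 19.7 FPKM (adjusted p = 0.00088 and 0.00092), and HNF4A and CREB3L3 had no read. The CEBPA levels came from 13 to 52 reads a library.

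**Figure D3:**
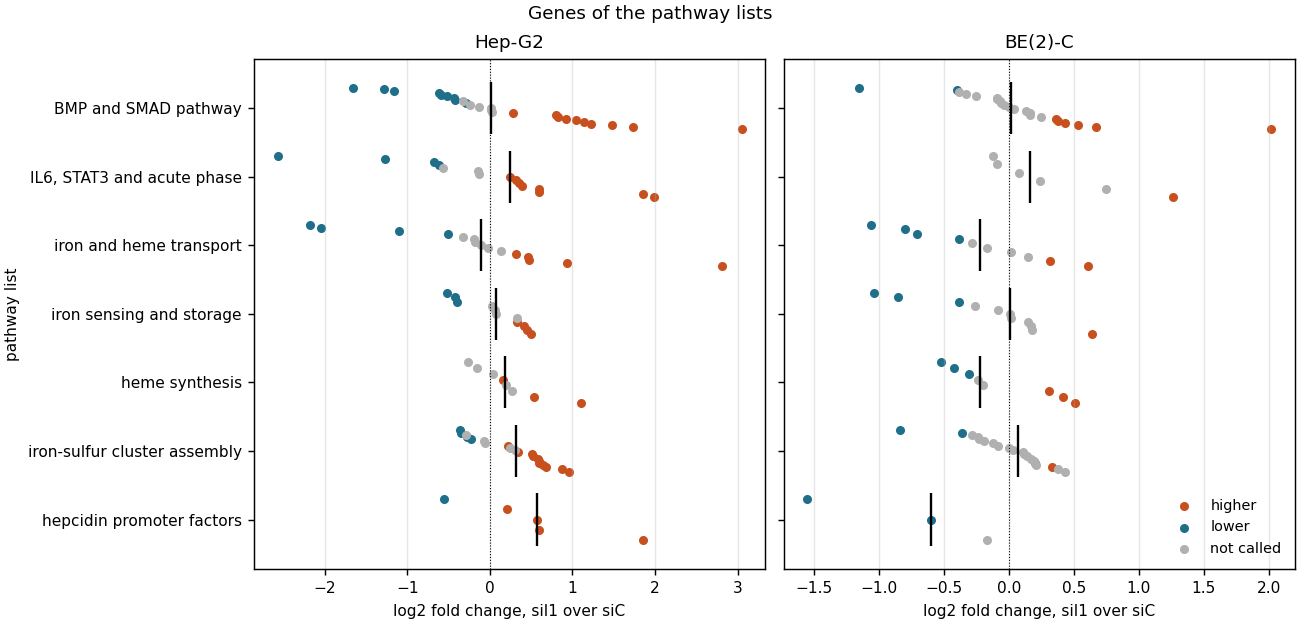
Log2 difference between siI1 and siC of each tested gene of the 7 lists in Hep-G2 and BE(2)-C. Points are genes, marked by their call at a limma adjusted p below 0.05, and lines are list medians. The median of the iron-sulfur list is 0.32 for Hep-G2 and 0.07 for BE(2)-C.

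The pattern of HAMP over the 6 Hep-G2 libraries was compared with that of 12854 genes, by Euclidean distance on the log2 scale after subtracting the siC mean. The 5 closest genes were AL161669.4, AC108752.1, RND2, SEMA3B.AS1 and KNG1, at distances of 0.91 to 1.27. Their means were 40.9, 29.6, 69.1, 18.9 and 46.6 times higher in siI1, against 24.7 times for HAMP. Most siC values of AL161669.4, AC108752.1 and RND2 lie near the pseudocount of 0.1, so their distances depend on it. The 5 genes were chosen on the contrast that chose HAMP and are a description. KNG1, which encodes kininogen, stood at 0.431, 0.392 and 0.508 FPKM in siC and 20.1, 20.7 and 21.3 FPKM in siI1. RND2 stood at 0.133, 0.0843 and 0.109 FPKM in siC and 7.30, 7.81 and 7.46 FPKM in siI1. Both lay higher in all siI1 libraries. AL161669.4 and AC108752.1 stood at 0.0880, 0.301 and 0.0926 and at 0.123, 0.140 and 0.0648 FPKM in siC, and at 7.37, 6.10 and 6.23 and 3.18, 3.80 and 2.71 FPKM in siI1. SEMA3B.AS1, an antisense gene whose reads depend on the strand setting of the counting, stood at 0.572, 2.17 and 0.802 FPKM in siC and 17.5, 25.0 and 24.3 FPKM in siI1. In BE(2)-C, RND2 had a mean of 6.88 FPKM in siC and 6.10 FPKM in siI1, KNG1 had at most 2 reads in a library, and the other 3 had none.

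**Figure D4:**
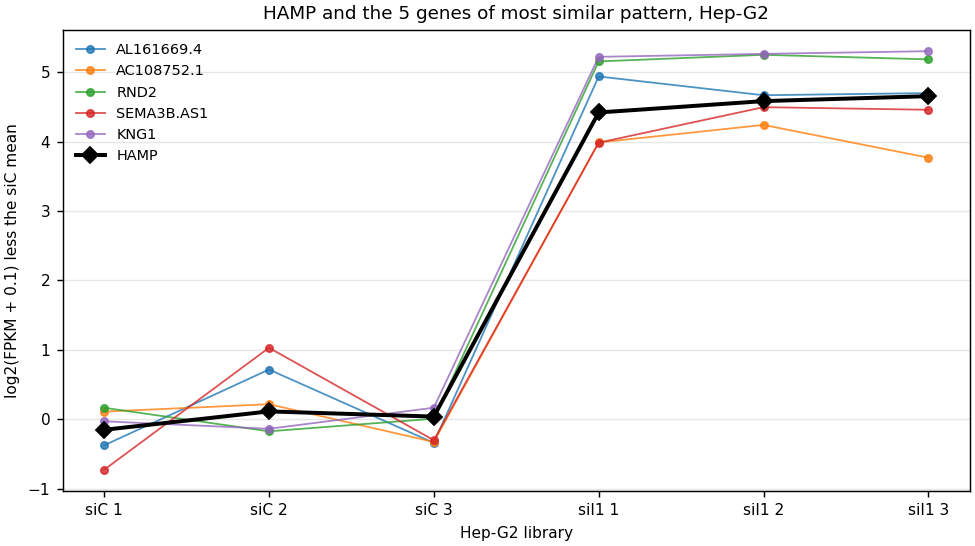
Log2(FPKM + 0.1) less the mean of the siC libraries, for HAMP (black diamonds) and the 5 genes of most similar pattern, in the 6 Hep-G2 libraries on the horizontal axis. Each point is 1 library, and lines join the points of a gene and show no order of replicates. HAMP lies near 0 in siC and all 6 genes lie well above it in siI1.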

How the data were processed

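FPKM values per gene and library, deposited as 1 table per cell line, were used. The authors clipped reads with cutadapt 1.14, aligned them to hg38 with HISAT2 2.1.0, handled them with SAMtools 1.5, counted them per gene with featureCounts 1.5.3 and scaled libraries by TMM with edgeR 3.30.3. Whether counting used strand is not given in the sources used here. The tables also hold the authors' log fold changes, p-values and FDR, which were not used.

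The members and lists were chosen with earlier results of these data known. In R 4.3.3, limma 3.58.1 was run on log2(FPKM + 0.1) for each line apart, with its trend option. Genes entered if 3 or more of the 6 libraries reached 0.1 FPKM, and p-values were adjusted after Benjamini and Hochberg over those genes (threshold 0.05). The pseudocount understates differences of low genes. Genes named are the members, IGF2BP1, up to 4 of the called genes of smallest p per list and line, and the 5 closest to HAMP. FPKM times gene length, multiplied by a factor for each library, gave whole reads in 100% of values (tolerance 0.001). Floors cover counting error only. Alternatives changed the pseudocount, filter, trend, scaling, replicate block and libraries.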

Additional observations from a re-analysis of the deposited data

Results flagged for a closer look

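Of 40 members and list genes of smallest p tested in both lines, 12 had all siI1 libraries on one side of all siC libraries in Hep-G2 and on the other side in BE(2)-C. Of these, GLRX5, ID2, ID3 and USF2 were not called by limma in BE(2)-C (adjusted p = 0.052, 0.29, 0.23 and 0.15). The gap between the lines, the log2 difference in Hep-G2 minus that in BE(2)-C, was not tested for any of them. Of 15362 genes tested in both lines, 877 lay above siC in Hep-G2 but below it in BE(2)-C in this way, and 861 the reverse, 11.3% together. The list genes among the 40 were chosen for a small p, which favours groups that lie apart. The 12 of 40 is therefore not comparable with the share over all genes. Levels are means in siC and then siI1.

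Among the members, the transferrin receptor genes were on this list. TFRC stood at 56.4 and 22.9 FPKM in Hep-G2 and at 33.3 and 41.2 FPKM in BE(2)-C, a gap of -1.61. TFR2 stood at 6.68 and 19.6 FPKM in Hep-G2 and at 1.24 and 0.794 FPKM in BE(2)-C, a gap of 2.13.

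Other genes with such opposite sides were found in the lists. CEBPA stood at 45.6 and 165 FPKM in Hep-G2 and at 1.32 and 0.383 FPKM in BE(2)-C, a gap of 3.40. USF2 stood at 18.0 and 27.2 FPKM in Hep-G2 and at 31.2 and 27.7 FPKM in BE(2)-C, a gap of 0.76. ID2 stood at 75.7 and 135 FPKM in Hep-G2 and at 61.0 and 58.5 FPKM in BE(2)-C, a gap of 0.89. ID3 stood at 29.3 and 68.6 FPKM in Hep-G2 and at 180.2 and 169 FPKM in BE(2)-C, a gap of 1.32. ACVR1 stood at 9.71 and 6.72 FPKM in Hep-G2 and at 3.49 and 5.63 FPKM in BE(2)-C, a gap of -1.20. ACO1 stood at 8.18 and 10.3 FPKM in Hep-G2 and at 3.31 and 1.80 FPKM in BE(2)-C, a gap of 1.18. HMOX1 stood at 33.0 and 46.8 FPKM in Hep-G2 and at 1.23 and 0.549 FPKM in BE(2)-C, a gap of 1.54. FDXR stood at 42.4 and 82.9 FPKM in Hep-G2 and at 3.12 and 1.69 FPKM in BE(2)-C, a gap of 1.81. GLRX5 stood at 33.1 and 51.5 FPKM in Hep-G2 and at 54.1 and 47.3 FPKM in BE(2)-C, a gap of 0.83. HSPA9 stood at 93.8 and 72.9 FPKM in Hep-G2 and at 182 and 209.9 FPKM in BE(2)-C, a gap of -0.57.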

How the results depend on the processing

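No Hep-G2 log2 difference of a member, and none of a member called in BE(2)-C, turned its direction in the alternatives, whereas the balance of list genes in Hep-G2 did. With each library at the same sum of FPKM, the Hep-G2 log2 differences of HAMP, TF, TFRC, TFR2, SLC40A1, FTH1, FTL, ID1, SMAD6 and SMAD7 were 4.39, 1.76, -1.47, 1.38, 0.31, 0.68, 0.40, 0.42, 0.49 and 0.74, since this alternative moves all genes of a library by 1 factor. Under this scaling the Hep-G2 counts were 35 list genes higher and 38 lower in all, 7 lower in the acute phase list, 3 higher and 7 lower in transport, 1 higher and 1 lower in heme synthesis and 7 lower in iron-sulfur assembly. Of all Hep-G2 calls, 3206 were higher and 5839 lower under it. After median centring TF was at 2.02 in Hep-G2, and in BE(2)-C 2 genes of the acute phase list and 2 of the sensing list were higher. With a pseudocount of 1, HAMP was at 4.02 and SMAD6 at 0.50 in Hep-G2.

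With no filter on low values, 2816 genes were higher in Hep-G2 and 1 sensing gene was lower. In BE(2)-C, 1885 genes were called, 886 higher and 999 lower, with more genes tested. The list counts in BE(2)-C were 7 higher and 8 lower in all, 2 higher and 1 lower for BMP and SMAD, 0 higher in transport, 1 lower in sensing, 0 lower in heme synthesis, and 0 higher and 1 lower in iron-sulfur assembly. For the counts of 0, limma had 4 higher in transport, 3 lower in heme synthesis and 4 higher in iron-sulfur assembly at an unadjusted p below 0.05. Of the members 0 were called by limma (2 higher and 1 lower at an unadjusted p below 0.05), with log2 differences of 0.31 for TFRC (adjusted p = 0.052), -0.59 for TFR2 (adjusted p = 0.096) and 0.45 for SMAD7 (adjusted p = 0.1). With an FPKM of at least 1 as the filter, 1 heme synthesis gene was lower in Hep-G2 and 4 iron-sulfur genes were lower in BE(2)-C. With no mean-variance trend, BE(2)-C had 3 BMP and SMAD genes higher, and 0 iron-sulfur genes higher by limma (5 at an unadjusted p below 0.05) and 1 lower. The cause was not tested for the trend, the centring or the stricter filter.

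Leaving out 1 library at a time gave 3431 to 4455 calls in BE(2)-C, 1495 to 2129 of them higher. The log2 difference of TFR2 in BE(2)-C was -0.65 to -0.50. In Hep-G2 it gave 1 to 3 sensing genes lower, and 2 to 5 heme synthesis genes higher and 0 to 1 lower. In BE(2)-C it gave 3 to 5 BMP and SMAD genes higher and 1 to 2 lower, 1 to 2 transport genes higher and 2 to 3 lower, and 0 to 4 iron-sulfur genes higher and 1 to 2 lower. Fewer libraries were fitted in each.

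Same-numbered siC and siI1 libraries deviated from their group means with correlations over genes of 0.063, 0.035 and -0.006 (Hep-G2) or 0.023, -0.01 and -0.003 (BE(2)-C), so the numbers were not taken to pair the libraries. With the replicate block, 8820 genes were called in Hep-G2 and 4672 in BE(2)-C. TFR2 in BE(2)-C was at -0.59 with a limma adjusted p of 0.053, SLC39A8 there had 0.051, and 1 heme synthesis gene was lower in Hep-G2.

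Depth limits what can be said of HAMP, TF, SLC40A1 and SOCS1 in BE(2)-C, which had at most 30 reads in a library. With 3 libraries a group, p-values rest on a spread that limma shares over genes.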
